A study of Mus musculus with 8 samples.

Results

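Ackr1-positive venular cells were taken from the hearts of mice with myocardial infarction (MI) by the transcripts they carried. A cell was included when it held at least 2 unique molecular identifiers (UMIs, each standing for 1 captured RNA molecule) of Ackr1, at least 1 of Plvap and at least 1 of Pecam1, Kdr or Cdh5, and none of Ptprc, Mki67, Top2a or Rgs5. This gate found 238 cells among the 17546 cells of the MI mice and the 31028 cells of the whole series. All mice carried the Pdgfb-iCreERT2-R26R-Brainbow2.1 transgenes, were 8 to 10 weeks old and received 1 dose of tamoxifen (150 mg/kg), so that a Confetti colour marked cells in which the Pdgfb-driven recombinase had been active. In 4 mice the left anterior descending coronary artery was tied off for good 14 days later and the ventricles were taken 7 days post-MI, while 4 healthy mice underwent no ligation and were taken 21 days after tamoxifen. Cells were sorted as CD31+, Confetti+ and podoplanin-, so endothelium that had escaped recombination was not sampled, and 1 single-cell library was made for each heart. Those deposited libraries held 15865234 to 27244947 UMIs in the MI mice. Pairs of MI libraries shared 21 to 40 cell barcodes, and 7 barcodes of Ackr1-positive cells recurred in another library. The highest match between 2 cells with a shared barcode and at least 1 MI library was 88.2% of their UMIs. Whether any such pair was 1 cell present in 2 libraries was not tested. The healthy libraries 228 and 239 shared 2041 barcodes, and healthy mice are given below only as a description.

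Ackr1 encodes the atypical chemokine receptor 1 (the Duffy antigen), which binds inflammatory chemokines without signalling through G proteins and carries them across the vessel wall. In most tissues it is found on the endothelium of post-capillary venules, the segment in which leukocytes leave the blood. There, P-selectin (Selp) and E-selectin (Sele) catch rolling leukocytes, ICAM-1 and VCAM-1 (Icam1, Vcam1) hold them through integrins, and Plvap forms the diaphragms of fenestrae, caveolae and transendothelial channels.

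The gate genes are described without a test, since they chose the cells. Ackr1 had a median of 6 UMIs in the 238 cells and ranged from 2 to 86. Plvap had a median of 20 UMIs, and 74.4% of the cells held 12 or more although the gate asked for 1. Of the 241 MI cells with 2 or more UMIs of Ackr1 that met the other conditions, 3 lacked Plvap. The gate did not use Selp, which was found in 198 of the 238 cells (83.2%, exact 95% binomial interval 77.8 to 87.7%). The share was 83.9% in MI 244, 76.5% in MI 250, 85.9% in MI 255 and 70.6% in MI 256. Over all MI cells of the common gate (a UMI of an endothelial gene and none of the 4 excluded genes), 534 held Ackr1, 782 held Selp and 261 held both, which was 48.9% of the first set and 33.4% of the second. Nr2f2, the transcription factor of venous identity, was found in 75.6% of the Ackr1-positive cells, and Fmo2, a flavin-containing monooxygenase, in 22.3%. Free RNA in the droplets, or 2 cells caught in 1 droplet, can place UMIs in cells that do not express a gene. These sources were not told apart. The pericytes and macrophages given next were chosen without regard to endothelial transcripts. At least 1 UMI of Ackr1 was found in 6.67% of pericytes (median depth 5834 UMIs), 7.89% of macrophages (8189 UMIs) and 2.18% of arterial cells (4540 UMIs) of the MI mice, and 2 or more UMIs in 0.952%, 3.87% and 0.252% of them. Selp was found in 3.81%, 7.44% and 2.35% of the same cells. At 2000 UMIs per cell Selp was found in 54.2% of the Ackr1-positive cells, beside 0.962%, 2.98% and 0.680%. The Ackr1-positive cells had a median depth of 7900 UMIs, and 1.86% of the 12970 MI cells of the common gate held 2 or more.

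Ackr1-positive cells made up 0.978% of the common gate in MI 244, 0.873% in MI 250, 5.09% in MI 255 and 0.598% in MI 256. MI 255 stood apart and gave 156 of the 238 cells (65.5%), against 31, 34 and 17 in the other mice. The mean share was 1.89% ± 2.14 (SD, n = 4), and 0.816% ± 0.196 (SD, n = 3) without MI 255. In healthy hearts 1 of 11391 cells of the common gate met the same conditions, in Healthy 227. No cell did in the other 3 healthy mice, where a count of 0 allows shares of up to 3 cells, or 0.105%, 0.0928% and 0.101%. The libraries differed in depth, with medians of 1508.5 to 2064 UMIs per cell in the healthy and 3259 to 4406 in the MI hearts. The shares were therefore also taken at an equal depth, from a random draw of 2000 UMIs per cell. Shallower cells could not enter this draw. All conditions of the gate, the exclusions included, were applied anew to the drawn UMIs. Cells excluded with all UMIs could thus enter, so the 2 gates do not hold the same cells. The common gate then held 1248, 1147, 1412 and 1572 cells in Healthy 227, 228, 239 and 240, against 2338, 2854, 3233 and 2966 with all UMIs. In MI 244, 250, 255 and 256 it held 3620, 3961, 3359 and 2628 cells, against 3169, 3895, 3063 and 2843. At this depth the shares were 0.635%, 0.353%, 2.89% and 0.190% in the MI mice and 0% in each healthy mouse, where 3 cells correspond to at most 0.262%. A UMI of Selp was found in 0.160 to 0.425% of the thinned cells in healthy hearts and in 1.82 to 7.68% in MI hearts. At this depth Selp was found in 0.680% of the arterial cells of the MI mice. No such background share was taken from healthy hearts, so the healthy values are not read as expression. Ackr1 was found in 0.0801% of the thinned cells of Healthy 227, in none of the other healthy hearts and in 0.799 to 6.61% in MI hearts. These intervals and limits cover counting error only.

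**Figure D1:**
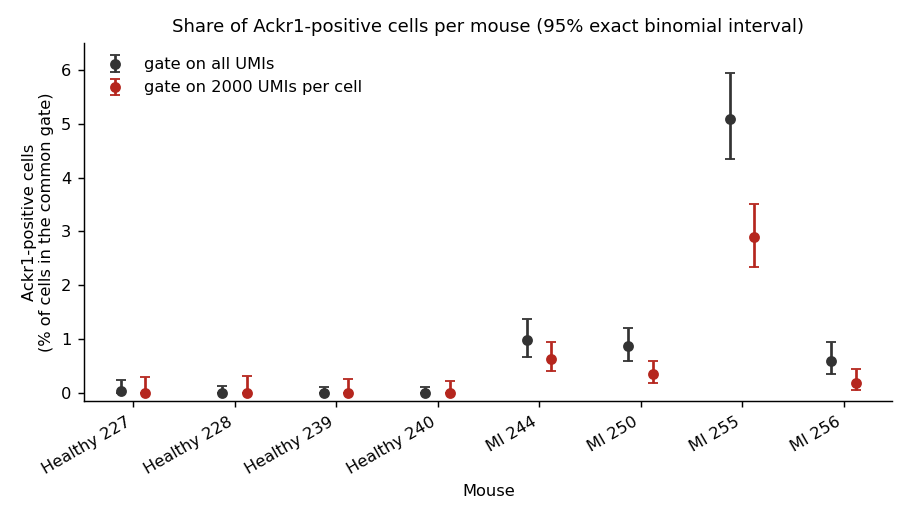
Share of Ackr1-positive cells among the cells of the common gate (y axis, percent) in each of the 8 mice (x axis), with the gate set on all UMIs (dark) and after thinning to 2000 UMIs per cell (red). Bars are exact 95% binomial intervals. MI 255, at 5.09%, lies above the other 3 MI mice (0.598 to 0.978%), and the healthy mice lie at or near 0.

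Cells with cell-cycle transcripts had been excluded by the gate. Before the 4 exclusions, 352 MI cells met the conditions on Ackr1, Plvap and the endothelial genes, and 114 were removed: 44 held Mki67, 46 Top2a, 31 Ptprc and 29 Rgs5. Mki67 or Top2a was found in 20.2% of these 352 cells (28.3%, 7.14%, 20.5% and 19.0% in the 4 mice in order of number) and in 14.3% of the 1623 Plvap-high cells counted the same way. At 2000 UMIs per cell the shares were 6.29% and 6.98% over the 4 mice, and 1.67%, 4.88%, 8.30% and 0% against 7.87%, 4.32%, 8.04% and 5.65% in the single mice, lower in MI 244 and MI 256 and higher in the others. The difference was not tested. The excluded cells are not among the 238 described here.

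In sums over the 4 mice, the levels of several genes differed with the number of Ackr1 UMIs within the 238 cells and across the edge of the gate. With cells pooled over the 4 mice at 2000 UMIs, Lrg1 was at 2302 CPM (UMIs of a gene per 1000000 UMIs of the sum) in the 43 cells with exactly 2 UMIs of Ackr1, 3562 CPM at 3 to 5 UMIs, 4389 CPM at 6 to 11 UMIs and 5364 CPM in the 66 cells with 12 or more. The 171 cells just outside the gate, with exactly 1 UMI of Ackr1 and with Plvap, had 1512 CPM. Ehd4 passed through the same bins from 573 CPM outside the gate to 930, 1000, 1468 and 1947 CPM inside it. This order did not hold in each mouse. In MI 244, Lrg1 was at 4923 CPM at 6 to 11 UMIs and 3611 CPM at 12 or more, and Ehd4 at 1692 and 1333 CPM. Selp was at 196 CPM outside the gate and at 384, 352, 937 and 871 CPM in the bins inside it. Rgcc, a capillary transcript, went the other way, from 520 CPM outside the gate to 116, 125, 87.3 and 37.9 CPM. Vwf was at 480 CPM outside the gate and at 795 to 891 CPM in the 4 bins inside it, with no order among them. Most cells of each bin came from MI 255, MI 256 had none with 12 or more UMIs, and the bins rest on the gate gene itself, so these values are a description.

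**Figure D2:**
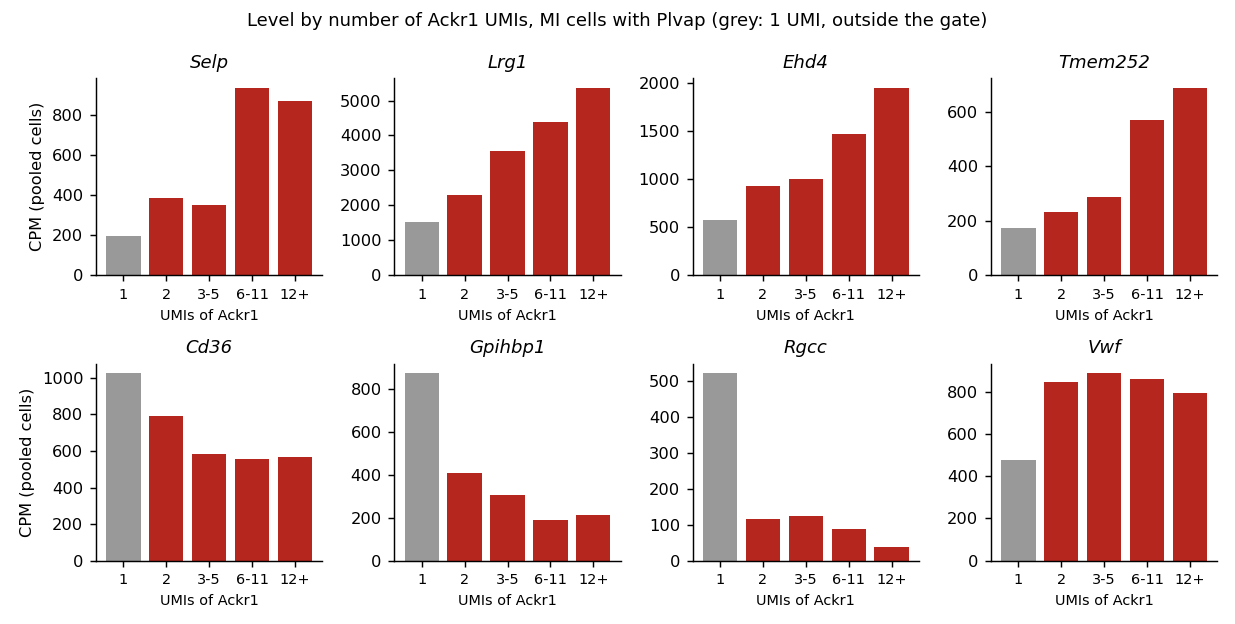
Pooled level (y axis, CPM at 2000 UMIs per cell) of 8 genes in MI cells with Plvap, by the number of Ackr1 UMIs (x axis). Grey marks the 171 cells with exactly 1 UMI, which lie outside the gate, and red the Ackr1-positive cells. In these pooled sums Lrg1 and Ehd4 are higher and Rgcc lower in the bins with more Ackr1, an order that did not hold in each mouse.

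The main comparison asked what distinguishes Ackr1-positive cells from other Plvap-rich cells of the same infarcted hearts. The comparator was 1205 Plvap-high cells with at least 3 UMIs of Plvap, none of Ackr1 or Selp and the same exclusions (346, 254, 469 and 136 cells in MI 244, 250, 255 and 256). The median depth was 7900 UMIs in Ackr1-positive and 6039 UMIs in Plvap-high cells. The deepest 5% of cells of each library held 14.7% of the Ackr1-positive and 8.30% of the Plvap-high cells. In MI 256 these shares were 52.9% (9 of 17 cells) and 13.2%. Cells were thinned to 2000 UMIs and summed per mouse and class, and the 2 sums of each mouse were compared with edgeR's quasi-likelihood test with the mouse as block. Of 4378 genes tested, 203 were higher in Ackr1-positive cells (4.64% of the genes tested) and 173 lower (3.95%) at an adjusted p under 0.05. Without the gate genes there were 200 and 172. Without MI 255 the counts fell to 105 and 76, of which 97 and 69 were among the genes called with all 4 mice. With DESeq2 they fell to 107 and 56, and all of these were among the genes called by edgeR.

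**Figure D3:**
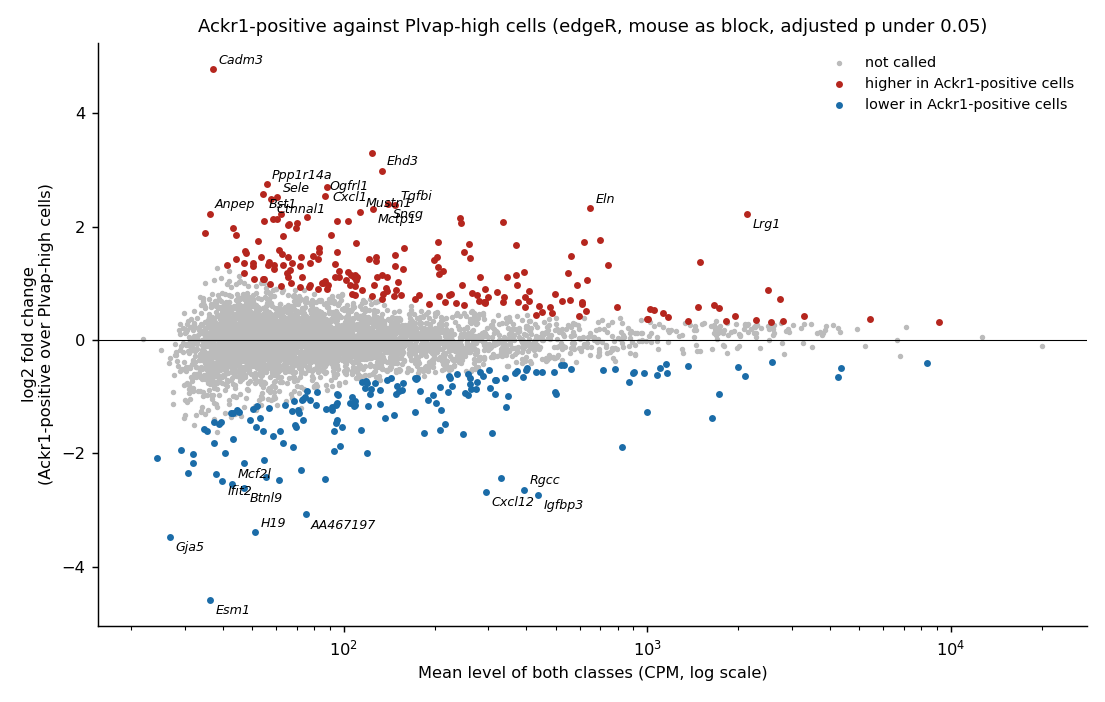
Log2 fold change of Ackr1-positive over Plvap-high cells (y axis) against the mean level of both classes (x axis, CPM on a log scale) for the genes tested, gate genes left out. Red and blue mark genes called higher and lower. Named genes include Lrg1, high in level at a log2 fold change of 2.23, and Esm1, the lowest point, which had 1 UMI in the Ackr1-positive sums.

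The markers that came with the cell type followed the gate. These genes were chosen by the study on clusters of these same cells (Ehd4, Tmem252, Tmem176a and Tmem176b on the cluster with Ackr1 and Selp, Lrg1 on another cluster of MI cells), so their direction is not independent evidence. All 5 of these genes were higher in Ackr1-positive cells. Lrg1, a secreted leucine-rich glycoprotein that modulates endothelial TGF-beta signalling (GRCm38 chr17:56119678-56122001, minus strand), was at 3823, 3424, 4417 and 2312 CPM in the Ackr1-positive cells of MI 244, 250, 255 and 256 and at 740, 785, 818 and 799 CPM in Plvap-high cells. The lowest Ackr1-positive value was above the highest Plvap-high value. The log2 fold change was 2.23 ± 0.12 (SE; adjusted p = 1.7e-21). Ehd4, an ATPase that reshapes membranes in endosomal and caveolar traffic (chr2:120089175-120154606, minus strand), was at 1355, 818, 1593 and 469 CPM against 418, 271, 418 and 235 CPM. MI 256 had the lowest value in both classes, and the groups did not overlap (log2 fold change 1.76 ± 0.14, adjusted p = 3.5e-15). Tmem252 (2.06 ± 0.18, adjusted p = 9.4e-14) was at 125 CPM in the Ackr1-positive cells of MI 256, below the highest Plvap-high value of 137 CPM. Tmem176a and Tmem176b overlap on opposite strands. Whether strand was used in counting is not given in the sources used here, so both levels carry that uncertainty. The endothelial markers had nearly equal summed levels in both classes, with 6339 to 7485 CPM in Ackr1-positive and 6587 to 7057 CPM in Plvap-high cells. These markers include Pecam1, Kdr and Cdh5, which the gate used, so the sums are not an independent check. They also hide single genes that differed. At equal depth Kdr was found in 33.1% of Ackr1-positive and 49.8% of Plvap-high cells. Emcn (82.6% against 76.4%) and Tek (29.7% against 25.6%) went the other way.

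**Figure D4:**
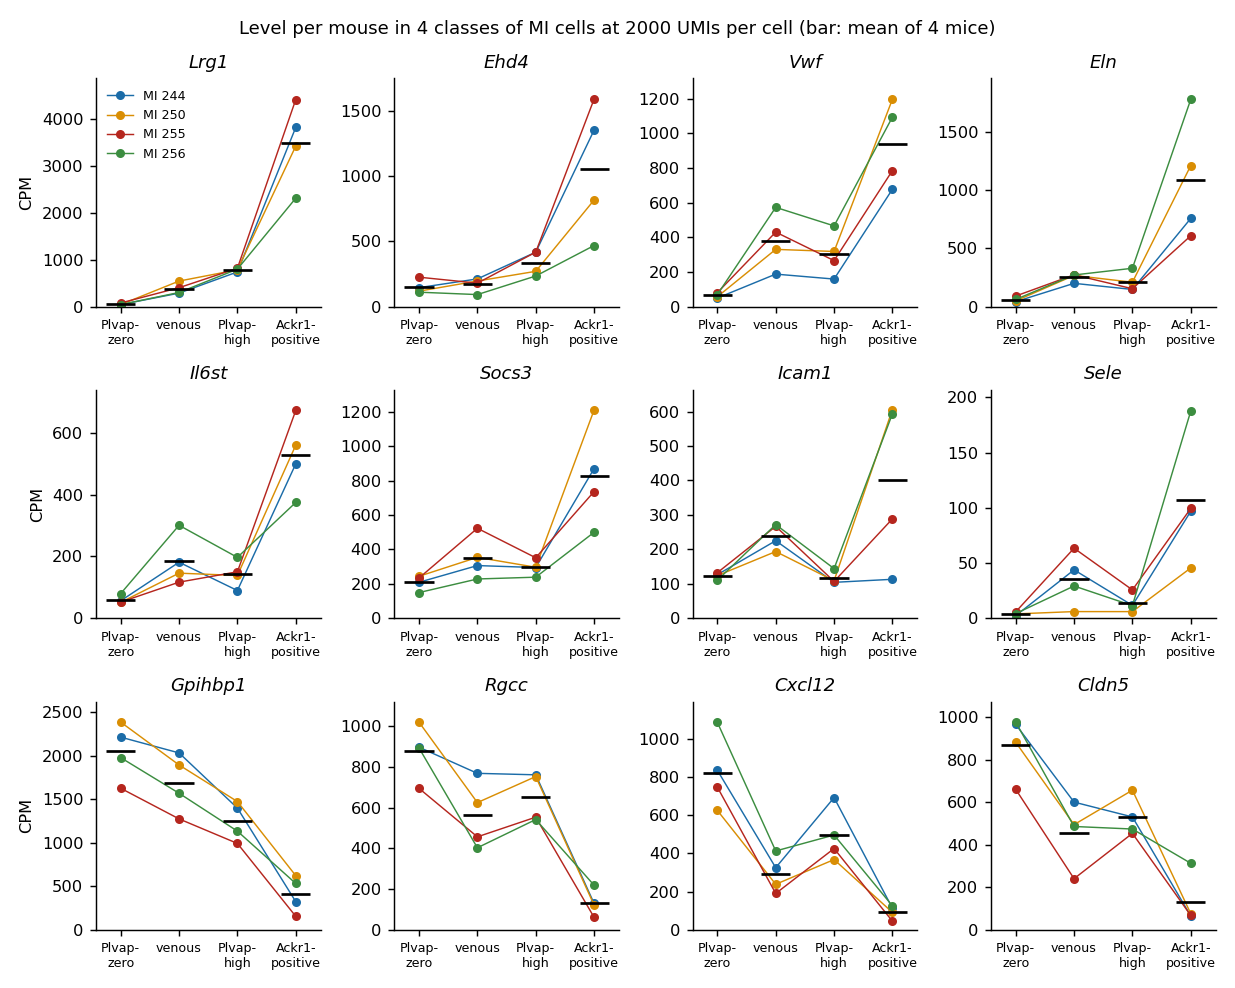
Level per mouse (y axis, CPM at 2000 UMIs per cell) of 12 genes in Plvap-zero, venous, Plvap-high and Ackr1-positive cells of the 4 MI mice (colours, joined by lines for the same mouse). Black bars are means of 4 mice. In every mouse Lrg1, Vwf, Eln and Il6st are highest, and Gpihbp1, Rgcc, Cxcl12 and Cldn5 lowest, in the Ackr1-positive cells, whereas Icam1 in MI 244, at 113 CPM, lies below the venous (225 CPM) and Plvap-zero (126 CPM) cells.

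Genes of venous identity were higher as a partial set. Of 12 tested, 5 were higher and 1 lower, with a median log2 fold change of 0.54 beside -0.01 for all genes tested. Vwf, the von Willebrand factor stored in Weibel-Palade bodies, was at 677, 1197, 785 and 1094 CPM in Ackr1-positive cells and at 159, 318, 265 and 466 CPM in Plvap-high cells, without overlap (1.73 ± 0.14, adjusted p = 2.3e-14). Nr2f2 was at 177, 273, 250 and 531 CPM against 60.7, 119, 138 and 148 CPM (1.23 ± 0.19, adjusted p = 3.5e-06). The prostaglandin genes of the list were both higher: Slco2a1, a prostaglandin transporter, at 1.73 ± 0.20 and Ptgs1, cyclooxygenase 1, at 1.16 ± 0.18. Cysltr1, a receptor for cysteinyl leukotrienes, was higher at 2.03 ± 0.33. Aplnr, the apelin receptor, with 790 CPM ± 70.3 (SD, n = 4) in Ackr1-positive cells and 869 CPM ± 202 in Plvap-high cells, did not pass the test.

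In the main test 8 of 11 capillary genes and 7 of 13 arterial genes were lower, and both counts depended on the setting. Of 13 arterial genes tested, 7 were lower and 1 (Fbln5, an elastic fibre protein, 1.47 ± 0.18) was higher, with a median of -0.89. Gja5, which encodes connexin 40 of arterial endothelium, had 2 UMIs in the Ackr1-positive sums and 126 in the Plvap-high sums, a 12.4-fold lower share of UMIs (counting interval 3.36 to 103), with at most 6.41 CPM in any Ackr1-positive sum against 49.2 to 53.5 CPM. Gja4, Hey1, Sox17, Dll4, Efnb2 and Unc5b, of the Notch and arterial programme, were the others, at log2 fold changes of -2.07 to -0.89. Without MI 255, 1 of the 9 arterial genes still tested was lower, with adjusted p of 0.43 for Gja4, 0.078 for Sox17 and 0.6 for Dll4, Hey1 was not called without MI 256 (0.064) nor Unc5b without MI 250 (0.054), and DESeq2 called none of 13 lower, beside 8 lower by edgeR at an unadjusted p under 0.05. Of 11 genes of capillary identity and fatty acid uptake, 8 were lower and 1 higher, with a median of -0.81, and DESeq2 called 4 lower. With comparator cells matched on depth, 5 of 10 were lower and 2 (Aqp1 and Meox2) higher. Tcf15, a transcription factor of heart capillary endothelium and 1 of the 8, lost the call without MI 244 (adjusted p = 0.11), MI 250 (0.093) or MI 255 (0.29). Gpihbp1, which carries lipoprotein lipase to the capillary lumen, was at 323, 621, 154 and 531 CPM in Ackr1-positive cells and at 1397, 1472, 991 and 1133 CPM in Plvap-high cells. The groups were well apart (-1.89 ± 0.17, adjusted p = 3.4e-13). Rgcc, a regulator of the cell cycle, was at 129, 121, 60.9 and 219 CPM against 762, 753, 553 and 542 CPM (-2.64 ± 0.21, adjusted p = 6e-15). The fatty acid genes Cd36, Fabp4, Fabp5 and Lpl were lower by smaller amounts, at -0.58, -0.40, -0.74 and -1.70, and Fabp4 and Cd36 lost the call in 10 and 3 of 20 alternatives, Fabp4 also without MI 244 (adjusted p = 0.35) and without MI 250 (0.053). Aqp1, the water channel, was higher in every mouse (1.37 ± 0.12, adjusted p = 3.9e-13).

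Leukocyte adhesion genes moved in both directions. Of 13 tested, 4 were higher (Sele, Bst1, Icam1 and Vcam1) and 3 lower (Icam2, Cd34 and Podxl), with a median of 0.06. Sele was at 96.8, 45.5, 99.4 and 188 CPM in Ackr1-positive cells and at 11.6, 5.93, 25.6 and 11.4 CPM in Plvap-high cells. Every mouse was higher and the groups did not overlap (2.52 ± 0.40, adjusted p = 3.5e-06). Bst1, the ectoenzyme CD157, which takes part in leukocyte transmigration (chr5:43818885-43843986, plus strand), was at 161, 75.8, 76.9 and 62.5 CPM against 15.9, 11.9, 18.1 and 11.4 CPM (2.59 ± 0.41, adjusted p = 3.9e-06). Icam1 was at 113, 606, 288 and 594 CPM against 104, 109, 107 and 144 CPM. MI 244 had almost the Plvap-high level, so the groups overlapped, although the fit passed the threshold (1.69 ± 0.20, adjusted p = 5.1e-09). Vcam1 was at 403, 288, 256 and 188 CPM against 184, 83.0, 113 and 121 CPM (1.28 ± 0.19, adjusted p = 8.3e-07). MI 244, the lowest mouse for Icam1, was thus the highest for Vcam1. The sialomucins Cd34 (-0.57 ± 0.13) and Podxl (-0.97 ± 0.20) and the integrin ligand Icam2 (-0.56 ± 0.15), which resting endothelium carries, were the lower genes, and Icam2 lost the call without MI 255 (adjusted p = 0.21).

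Chemokines, other than the receptor that chose the cells, showed 2 higher and 1 lower of 6 tested. Cxcl1, a neutrophil-attracting chemokine bound by the Ackr1 protein (chr5:90891241-90893115, plus strand), was at 145, 152, 106 and 219 CPM in Ackr1-positive cells and at 14.5, 31.6, 20.3 and 18.9 CPM in Plvap-high cells. All 4 mice had a higher level and no value of one class reached the other (2.71 ± 0.33, adjusted p = 8.2e-09). Ackr3, a scavenging receptor for CXCL12, was higher (1.02 ± 0.24, adjusted p = 0.0018), and Cxcl12, a homing chemokine (chr6:117168535-117181367, plus strand), was lower, at 113, 90.9, 44.9 and 125 CPM against 692, 368, 425 and 496 CPM (-2.68 ± 0.23, adjusted p = 8.4e-14). Ackr3 was not called without MI 244 (adjusted p = 0.098).

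Some cytokine receptor genes and 11 of 18 NF-kB and STAT3 response genes were higher. In the list of cytokines and their receptors 7 of 17 tested genes were higher and 2 lower, with a median of 0.59. Il6st, the gp130 chain through which IL-6 family cytokines signal, was at 500, 561, 673 and 375 CPM against 89.6, 138, 150 and 197 CPM (2.08 ± 0.18, adjusted p = 7e-14). Lifr, a partner of gp130, was at 96.8, 212, 260 and 62.5 CPM against 50.6, 51.4, 65.0 and 83.3 CPM, and MI 256 did not show the direction (1.71 ± 0.26, adjusted p = 1.1e-06). Il1r1, the interleukin-1 receptor (1.52 ± 0.32), Tnfrsf1a, a TNF receptor (0.68 ± 0.15), Il2rg, the common gamma chain (1.11 ± 0.25), Csf1 (1.36 ± 0.40) and Il6 (1.01 ± 0.30) were the other higher genes, and Il10rb and Ifngr1 were the lower ones. Il1r1 lost the call without MI 255 (adjusted p = 0.057), Il2rg without MI 244 (0.069), Tnfrsf1a and Csf1 without MI 250 (0.058 and 0.15), and Il6 and Il10rb in 9 of 19 alternatives each, with Il6 at 0.069 to 0.25 without MI 250, 255 or 256 and Il10rb at 0.096 to 0.26 without MI 244, 255 or 256. In the list of NF-kB and STAT3 response genes 11 of 18 were higher and none lower, with a median of 0.95, and 1 was lower at an unadjusted p under 0.05. Socs3, the STAT3-induced inhibitor of cytokine signalling, was at 871, 1212, 737 and 500 CPM against 295, 296, 352 and 239 CPM (1.49 ± 0.15, adjusted p = 9.8e-12). Csf2rb, the beta chain shared by the receptors for GM-CSF, IL-3 and IL-5 (152 CPM ± 75.8 against 37.9 CPM ± 7.71, SD, n = 4, adjusted p = 6.9e-08), and the C/EBP-beta gene Cebpb (1.84 ± 0.30) were also higher, but Csf2rb has the near-identical neighbour Csf2rb2 and reads may be split between them. The inhibitor Nfkbia, itself an NF-kB target, was at 581, 818, 644 and 469 CPM against 405, 370, 401 and 299 CPM (0.81 ± 0.14, adjusted p = 2.4e-05). Nfkbiz, Bcl3, Irf1, Junb, Icam1, Vcam1 and Sele completed the 11. Without MI 255, 6 of the 13 genes still tested were higher, with DESeq2 9 of 18 (none lower), and with at least 10 UMIs of Plvap in both classes 8 of 9. With comparator cells matched on depth, 12 of 18 were higher and 1 (Tnfaip2) lower. Nfkbiz, Bcl3 and Irf1 were among the calls lost without MI 255 (adjusted p of 0.16, 0.13 and 0.26), Bcl3 and Irf1 also without MI 250 (0.13 and 0.075) and Irf1 without MI 256 (0.13). In a list of immediate early and heat shock genes, which rise during tissue dissociation, 6 of 14 were higher, all of them immediate early genes (Fos, Junb, Egr1, Ier3, Zfp36 and Nr4a1), and none was lower, with a median of 0.57, and 9 of 14 without MI 255. The part of dissociation in the NF-kB and STAT3 result was not tested.

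To show the sequence in front of genes that moved together, the 250 bases upstream of the start were searched in the RefSeq promoter windows of GRCm38.p6 for the NF-kB consensus and for TTCCNGGAA (a STAT motif), TTGCNNAA (C/EBP) and TGANTCA (AP-1), on both strands. Only the first window listed for a gene was searched. In some genes, among them Mctp1 and AA467197, that window lay inside the gene as annotated. Windows were found for 8 of the 11 higher NF-kB and STAT3 genes and for 12 of the 15 most increased genes. The NF-kB consensus occurred in 2 of the 8 (Nfkbia and Irf1) and in 1 of the 12 (Cxcl1), but also in 2 of the 9 windows found for the 10 most decreased genes (Ifit2 and Rgcc), beside 7.01% of the 27025 genes with a window and 8.85% of the 3369 tested genes with one. TTCCNGGAA occurred in 1 of the 8 (Icam1), none of the 12 and 1 of the 9 (Ifit2), beside 0.914% of all windows and 0.801% of those of tested genes. TGANTCA occurred in 1 of the 8 (Sele), 3 of the 12 (Cadm3, Mctp1 and Sele) and 1 of the 9 (AA467197), beside 6.87% of all windows and 4.30% of those of tested genes. TTGCNNAA occurred in none of them, beside 9.55% and 7.75%. Such a match describes letters and is not a binding site. The 5 windows of these genes with the NF-kB consensus follow, 3 of genes that were higher and 2 of genes that were lower, with the matching bases in capitals, 5′ to 3′ on the strand of the gene up to the base before its start. The match began 29 bases before the start in Nfkbia, 13 in Irf1, 247 in Ifit2, 95 in Rgcc and 71 in Cxcl1, where a second match on the other strand began 70 bases before it.
Cxcl1 (chr5:90890995-90891244, plus strand): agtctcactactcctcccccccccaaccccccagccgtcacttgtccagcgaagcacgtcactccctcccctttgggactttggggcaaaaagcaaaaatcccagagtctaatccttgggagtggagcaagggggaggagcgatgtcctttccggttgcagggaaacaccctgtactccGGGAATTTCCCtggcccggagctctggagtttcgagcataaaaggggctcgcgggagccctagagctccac
Nfkbia (chr12:55492648-55492897, minus strand): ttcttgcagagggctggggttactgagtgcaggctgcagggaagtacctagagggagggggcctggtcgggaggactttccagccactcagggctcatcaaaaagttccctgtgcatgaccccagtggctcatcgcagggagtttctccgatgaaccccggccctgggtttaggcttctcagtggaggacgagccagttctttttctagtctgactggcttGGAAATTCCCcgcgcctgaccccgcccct
Irf1 (chr11:53769764-53770013, plus strand): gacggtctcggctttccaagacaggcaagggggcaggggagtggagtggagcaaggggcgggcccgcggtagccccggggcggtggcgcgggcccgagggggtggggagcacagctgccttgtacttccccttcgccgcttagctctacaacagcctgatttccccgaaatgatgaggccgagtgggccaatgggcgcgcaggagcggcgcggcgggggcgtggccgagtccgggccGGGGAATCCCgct
Ifit2 (chr19:34550444-34550693, plus strand): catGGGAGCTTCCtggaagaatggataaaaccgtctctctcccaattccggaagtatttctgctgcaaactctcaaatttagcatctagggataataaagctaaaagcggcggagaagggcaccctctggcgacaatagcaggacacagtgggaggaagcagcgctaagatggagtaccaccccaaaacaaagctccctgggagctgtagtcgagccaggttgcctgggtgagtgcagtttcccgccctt
Rgcc (chr14:79301636-79301885, minus strand): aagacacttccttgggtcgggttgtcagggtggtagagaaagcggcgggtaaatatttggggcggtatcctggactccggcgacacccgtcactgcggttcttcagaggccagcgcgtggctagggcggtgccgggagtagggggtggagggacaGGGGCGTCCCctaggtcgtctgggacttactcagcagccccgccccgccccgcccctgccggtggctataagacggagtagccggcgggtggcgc

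The other large increases fell on genes of several kinds. Cadm3, a cell adhesion molecule, had the highest log2 fold change (4.78 ± 0.61, adjusted p = 2e-08), at 64.5, 60.6, 99.4 and 62.5 CPM against 0, 1.98, 4.26 and 3.79 CPM. Cadm3 (chr1:173333258-173367695, minus strand) overlaps Ackr1 (chr1:173331886-173333750) on the same strand, so its UMIs may derive from transcripts of the gate gene and its level is uncertain. Ehd3, a relative of Ehd4 that also works in membrane traffic (chr17:73804134-73832094, plus strand), was at 387, 136, 311 and 93.8 CPM against 40.5, 27.7, 33.0 and 37.9 CPM (2.99 ± 0.26, adjusted p = 1.4e-13). Eln, which encodes elastin (chr5:134702593-134747323, minus strand), was at 758, 1212, 609 and 1781 CPM against 147, 209, 154 and 330 CPM. Each mouse had several times more elastin transcript in its Ackr1-positive cells (2.33 ± 0.14, adjusted p = 1.4e-19). Tgfbi, a TGF-beta-induced matrix protein, was at 258, 273, 247 and 219 CPM against 34.7, 55.3, 58.6 and 37.9 CPM (2.38 ± 0.23, adjusted p = 1e-11). Sncg, gamma-synuclein (2.41 ± 0.22), Mctp1, a calcium-binding membrane protein (2.31 ± 0.25), Ogfrl1 (2.55 ± 0.28), Ctnnal1, an alpha-catenin-like protein (2.49 ± 0.35), and Anpep, aminopeptidase N (2.23 ± 0.55), followed. Ogfrl1 and Sncg overlapped between classes through MI 256, at 31.2 CPM for both in the Ackr1-positive cells, and Anpep lost the call without MI 244 (adjusted p = 0.077).

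Ppp1r14a and Tagln, known from smooth muscle, and Mustn1 were higher in Ackr1-positive cells. Ppp1r14a, an inhibitor of myosin phosphatase, was at 96.8, 152, 64.1 and 62.5 CPM against 4.34, 19.8, 9.59 and 37.9 CPM (2.75 ± 0.45, adjusted p = 6.9e-06), and Mustn1, a small nuclear protein of the musculoskeletal system, at 161, 197, 228 and 125 CPM against 39.0, 39.5, 35.2 and 83.3 CPM (2.25 ± 0.27, adjusted p = 7.5e-09). Of the 4 smooth muscle markers, Tagln was at 274, 333, 272 and 0 CPM against 82.4, 15.8, 13.9 and 0 CPM (3.31 ± 0.31, adjusted p = 2.7e-12), and was found in 24.6% of the Ackr1-positive and 3.5% of the Plvap-high cells at equal depth. The summed level of the 4 markers was 0 to 364 CPM in Ackr1-positive and 15.2 to 96.8 CPM in Plvap-high sums. Acta2 was found in 2.54% and 1.83% of the cells, and Myh11 and Cnn1 in none of the thinned Ackr1-positive cells. The 8 pericyte markers were at 0 in all 4 Ackr1-positive sums and at 26.0 to 33.6 CPM in the Plvap-high sums. No cell with Rgs5, a mural cell gene, could enter either class. Of the markers of other cell types, the summed levels in Ackr1-positive cells were 250 to 1548 CPM for 10 macrophage genes against 303 to 1297 CPM, with MI 244 highest among the Ackr1-positive sums, 30.3 to 80.6 CPM for 7 fibroblast genes against 54.9 to 173 CPM, 0 to 30.3 CPM for 7 lymphatic genes against 49.1 to 542 CPM, 0 to 48.4 CPM for 5 neutrophil genes against 0 to 65.0 CPM, and 0 in all sums for 5 T and NK cell genes against at most 1.07 CPM. The 5 B or plasma cell genes were at 32.3, 106, 73.7 and 0 CPM against 14.5, 67.2, 62.9 and 0 CPM, higher in 3 of 4 mice, with Ms4a1 at 0 in both classes. The 8 cardiomyocyte genes were at 0 to 64.5 CPM against 18.1 to 75.8 CPM, and the 5 erythroid genes at 38.5 to 606 CPM against 55.4 to 435 CPM. The 6 endocardial genes were lower in Ackr1-positive cells of each mouse (16.1 to 93.8 CPM against 76.6 to 239 CPM) and the 4 platelet genes higher in each mouse (75.8 to 156 CPM against 44.8 to 75.8 CPM), with Gp9 and Ppbp at 0 in the Ackr1-positive sums. The part of B or plasma cell, endocardial and platelet RNA in the gene results was not tested. The part of smooth muscle RNA in Ppp1r14a and Mustn1 was not tested.

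**Figure D5:**
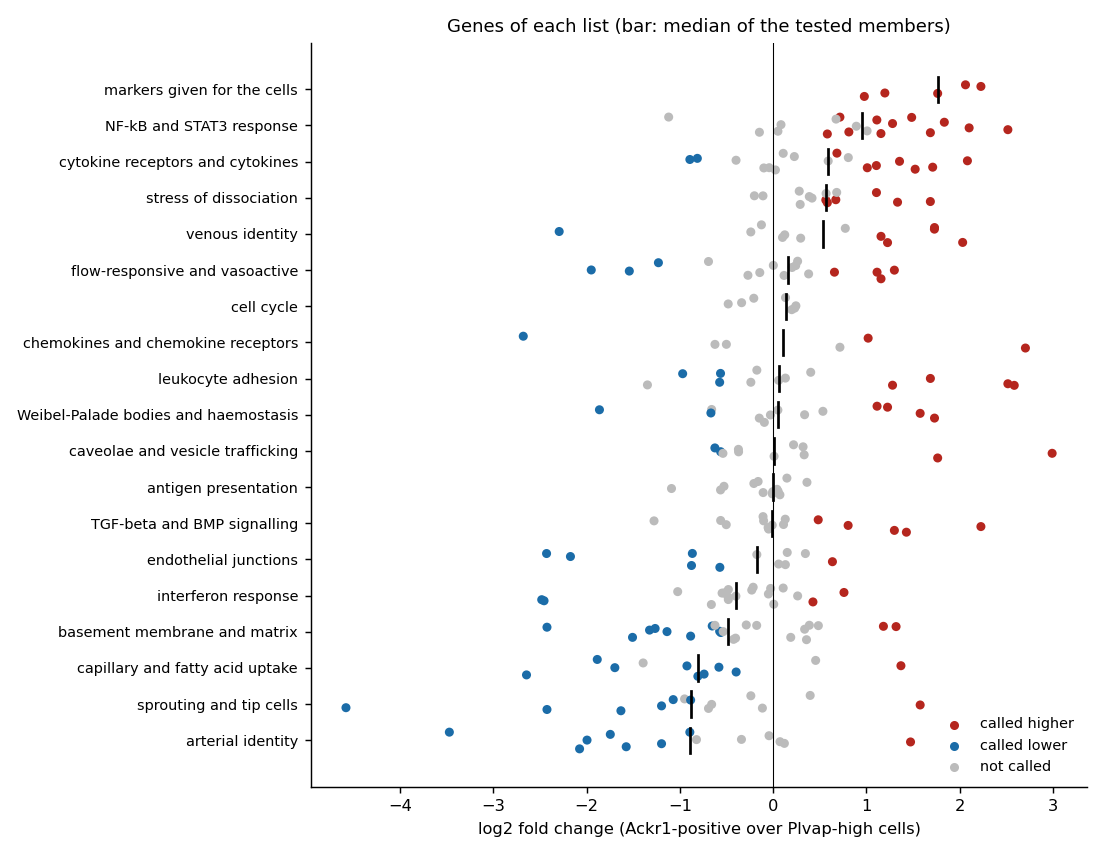
Log2 fold change (x axis, Ackr1-positive over Plvap-high cells) of every tested gene of 19 lists (y axis), with red, blue and grey for genes called higher, called lower and not called. Black bars are medians. The NF-kB and STAT3 list has a median of 0.95 and no gene called lower, and the arterial list a median of -0.89.

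Where matrix, sprouting and junction genes were called against Plvap-high cells, most were lower, but the matrix genes did not keep this against the other comparators. Of 22 basement membrane and matrix genes, 9 were lower and 2 higher, with a median of -0.48. Sparc was at 3242, 3439, 3022 and 3406 CPM against 5887, 5223, 5306 and 4481 CPM (-0.65 ± 0.11, adjusted p = 6.8e-06), and its relative Sparcl1 was lower by more (-1.26 ± 0.14). The basement membrane chains Lama4 (-1.32 ± 0.25), Lamc1 (-1.14 ± 0.27) and Lamb1 (-0.88 ± 0.24), with Nid2 (-2.42 ± 0.46), were lower, whereas Bgn, the proteoglycan biglycan (1.32 ± 0.13), and Fbln2, an elastic fibre-associated fibulin (1.18 ± 0.14), were higher. Against venous cells 5 of 19 matrix genes were higher and 3 lower, and against Plvap-zero cells 8 of 23 were higher and 6 lower, with Bgn and Fbln2 higher and Sparcl1 lower in both. In the venous comparison Sparcl1 was not called without MI 244 (adjusted p = 0.16). Col4a2, higher there, lost the call in 12 of 15 alternatives, among them each fit without 1 mouse. Emilin1, lower there, lost it in 8 of 15, among them those without MI 250, 255 or 256. Timp3, also lower, lost it without MI 244 or 255. In the Plvap-zero comparison Lama5, higher, lost the call in 12 of 15 alternatives and Lamc1, lower, in 7 of 15. Of 13 genes of sprouting and tip cells, 6 were lower and 1 higher, with a median of -0.88. Esm1, a secreted proteoglycan of tip cells (chr13:113209659-113218098, plus strand), had 1 UMI in the Ackr1-positive sums and 173 in the Plvap-high sums, a 34.0-fold lower share of UMIs (counting interval 6.03 to 1352). Trp53i11 was at 64.5, 121, 128 and 312 CPM against 507, 553, 378 and 398 CPM (-1.63 ± 0.21, adjusted p = 2.2e-08), Dll4, Pdgfb and Lamb1 were lower but lost the call without MI 255 (adjusted p of 0.6, 0.29 and 0.46), as did Lamc1 (0.19), Dll4 and Pdgfb also without MI 256 (0.07 and 0.13) and Pdgfb without MI 250 (0.056), and Angpt2, a Weibel-Palade body ligand of the Tie2 receptor, was higher (1.58 ± 0.36, adjusted p = 0.0016) at 48.4, 106, 109 and 0 CPM against 49.1, 15.8, 30.9 and 18.9 CPM. Angpt2 was thus higher in MI 250 and MI 255 alone, and without MI 255 it was no longer tested, with 2 of 9 sprouting genes lower. Of 11 junction genes, 5 were lower and 1 (Ptprb, a phosphatase of VE-cadherin, 0.64 ± 0.14) higher, but without MI 255 or with DESeq2 1 was lower and 1 higher. Cldn5, the claudin of endothelial tight junctions, was at 64.5, 75.8, 67.3 and 312 CPM against 530, 656, 453 and 473 CPM, with MI 256 the least reduced (-2.43 ± 0.23, adjusted p = 2.2e-12).

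Other lists moved little or in part. In the list of Weibel-Palade bodies and haemostasis, 4 of 13 genes were higher (Vwf, Angpt2, Procr and Edn1) and 2 lower (Plat and Thbd), with a median of 0.05. Procr, the endothelial protein C receptor, was at 113, 106, 205 and 93.8 CPM against 57.8, 71.1, 75.7 and 53.0 CPM (1.23 ± 0.25, adjusted p = 0.00037), and Plat, tissue plasminogen activator, at 64.5, 30.3, 38.5 and 31.2 CPM against 146, 123, 162 and 182 CPM (-1.86 ± 0.30, adjusted p = 4.4e-06). Procr, Edn1 and Thbd lost the call without MI 255 (adjusted p of 0.35, 0.56 and 0.14), Edn1 also without MI 256 (0.05) and Thbd without MI 244 or 256 (0.12 and 0.14). Of 15 TGF-beta and BMP genes, 5 were higher and none lower, namely Lrg1, Bmp4 (1.43 ± 0.24), Tgfbr3 (1.30 ± 0.36), Id2 (0.80 ± 0.25) and Eng (0.48 ± 0.12), beside 2 lower at an unadjusted p under 0.05 and none lower by DESeq2. Id2 lost the call without any 1 of the 4 mice (adjusted p of 0.052 to 0.18). With DESeq2, 3 of the 15 were higher, and without MI 255, 3 of the 13 still tested. With comparator cells matched on depth, 6 of 15 were higher and 2 (Cd109 and Smad1) lower. Of 11 caveolar and vesicle genes, Ehd3 and Ehd4 were higher and Cav1 (-0.62 ± 0.13) and Cav2 (-0.56 ± 0.16), the caveolins, lower, the last not without MI 244 (adjusted p = 0.16). Of 16 flow-responsive and vasoactive genes (2 higher and 1 lower without MI 255 or with DESeq2), 4 were higher, among them the angiotensin-converting enzyme Ace (1.30 ± 0.22), and 3 lower, among them the endothelin receptor Ednrb (-1.95 ± 0.33; not called without MI 255, adjusted p = 0.11) and the thrombin receptor F2r (-1.23 ± 0.29). Ece1 and Ramp3, of the same list, lost the call without MI 255 (adjusted p of 0.17 and 0.24). Of 19 interferon genes, with a median of -0.40, 2 were higher and 2 lower (Rsad2 at -2.46 ± 0.34 and Ifit2 at -2.48 ± 0.55), beside 3 higher and 8 lower at an unadjusted p under 0.05, and DESeq2 called 0 higher and 1 lower. The higher ones, Ifitm2 and Iigp1, were not called without MI 255 (adjusted p of 0.22 and 0.085), Ifitm2 also not without MI 244 (0.054) and Iigp1 not without MI 250 (0.14). None of 14 antigen presentation genes and none of 7 cell cycle genes was called by edgeR in the main test or by DESeq2. In the main test, 1 of the former and 0 of the latter had an unadjusted p under 0.05. Cd74 was called lower without MI 244, and Cd40 was called lower with comparator cells matched on depth. Cells with Mki67 or Top2a had been removed from both classes.

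Among the lowest genes outside these lists was Igfbp3, which binds insulin-like growth factors, at 80.6, 136, 135 and 31.2 CPM in Ackr1-positive cells and at 827, 816, 840 and 636 CPM in Plvap-high cells (-2.73 ± 0.19, adjusted p = 6.7e-17). The imprinted non-coding RNA H19 had 6 UMIs, all in MI 255, and its levels were 0, 0, 19.2 and 0 CPM against 40.5, 107, 178 and 64.4 CPM (-3.39 ± 0.44, adjusted p = 4.6e-08). AA467197, which encodes a small mitochondrial protein, was at 0, 0, 19.2 and 31.2 CPM against 186, 146, 122 and 94.7 CPM (-3.07 ± 0.41, adjusted p = 7e-08). Btnl9, a butyrophilin-like protein (-2.61 ± 0.51), and Mcf2l, a guanine nucleotide exchange factor (-2.53 ± 0.51), each had 5 UMIs in the Ackr1-positive sums. Mcf2l lost the call without MI 255 (adjusted p = 0.078). Bst1, Eln, Esm1, Gja5, Mcf2l, Plvap and Selp, and Timp4, Art3, Itgb4 and Cmah below, overlap genes of the opposite strand. The use of strand in counting is not given in the sources used here, so the levels of these genes carry that uncertainty.

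The second comparison asked how Ackr1-positive cells differed from other venous cells of the same hearts, taken as 510 MI cells with Fmo2 and Nr2f2, without Ackr1 and with any level of Selp and Plvap. Of 3190 genes tested, 185 were higher (5.8%) and 196 lower (6.14%), and without MI 255 there were 93 and 90. Selp, which was not used to choose either class here, was at 290, 424, 817 and 312 CPM in Ackr1-positive cells and at 50, 50.6, 86.7 and 92.2 CPM in the venous cells, without overlap (2.87 ± 0.24, adjusted p = 1.9e-09). Ehd3 (4.38 ± 0.42, adjusted p = 1.8e-08), Chst2, a sulfotransferase that builds selectin ligands (3.60 ± 0.51), the integrin Itgb4 (3.33 ± 0.53) and Csf2rb2 (3.30 ± 0.43) were among the most increased, together with the uncertain Cadm3. Lrg1 was at 384 CPM ± 119 (SD, n = 4) in the venous cells, below every Ackr1-positive sum (3.20 ± 0.17, adjusted p = 4e-14). Vwf was higher than in venous cells (1.34 ± 0.18, adjusted p = 4.5e-06), at 380 CPM ± 162 in the latter. Icam1 (0.64 ± 0.25, adjusted p = 0.11) and Vcam1 (-0.31 ± 0.22, adjusted p = 0.46) did not pass the test against venous cells. Sele passed with overlapping groups (1.29 ± 0.39, adjusted p = 0.028), and not without MI 244 (0.071), MI 250 (0.082) or MI 256 (0.11). Erythroid genes were at 4573 CPM in the venous sum of MI 256 and at 36.7 to 399 CPM in the other 3. Smooth muscle genes were at 0 to 364 CPM in Ackr1-positive and 16.7 to 189 CPM in venous sums, lower in Ackr1-positive cells in MI 256 alone. Fibroblast genes reached 482 CPM in the venous sum of MI 250. Platelet genes were at 75.8 to 156 CPM in Ackr1-positive and 34.0 to 63.3 CPM in venous sums. The part of these cell types in this comparison was not tested.

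Most capillary genes were lower than in venous cells, and fewer of the interferon calls held under other settings. Of 13 capillary and fatty acid genes, 12 were lower and none higher, with a median of -2.27 beside -0.01 for all genes tested. Lpl, lipoprotein lipase, had a mean of 25.3 CPM ± 8.06 (SD, n = 4) against 308 CPM ± 122 (-3.35 ± 0.33, adjusted p = 2.2e-08), and Kcna5, a potassium channel, 18.0 CPM ± 9.26 against 132 CPM ± 35.7 (-3.10 ± 0.44). Timp4, an inhibitor of metalloproteinases, had 3 UMIs in the Ackr1-positive sums and 189 in the venous sums, a 29.7-fold lower share (counting interval 10.0 to 145), and Art3, a mono-ADP-ribosyltransferase, had 2 and 82, a 19.3-fold lower share (5.18 to 162). Meox2, of the capillary list, was not called without MI 244 (adjusted p = 0.072). Of 19 interferon response genes, 9 were lower and none higher, with a median of -0.80, among them Ifit2 (-3.02 ± 0.55, adjusted p = 0.00028). DESeq2 called only Ifit2 and Rsad2 of the 9. Ifit1 was not called without MI 244, 250 or 256 (adjusted p of 0.076 to 0.28), Ifit3b (0.12 and 0.11) and Isg15 (0.072 and 0.099) not without MI 244 or 255, and Usp18 not without MI 250 (0.066). The NF-kB and STAT3 list, with Selp counted here, had 6 of 17 genes higher and none lower. Of the 6, Bcl3 was not called without MI 250 (adjusted p = 0.076), and DESeq2 did not call Bcl3, Cebpb or Sele. Of 10 genes of Weibel-Palade bodies and haemostasis, 6 were higher and 2 lower. Of these Cd63 was not called without MI 244 (adjusted p = 0.18), S100a10 not without MI 244, 250 or 255 (0.059 to 0.15) and Plat not without MI 250 (0.069).

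The third comparison set the Ackr1-positive cells against 8624 Plvap-zero MI cells, which held neither Ackr1 nor Plvap. Of 9280 genes tested, 368 were higher (3.97%) and 573 lower (6.17%), around a median log2 fold change of -0.12 for all genes, and without MI 255 there were 187 and 391. Lrg1 rose from 51.4 CPM ± 17.0 (SD, n = 4) in Plvap-zero cells to 3494 CPM ± 887 (5.97 ± 0.22, adjusted p = 3.6e-161). Chst2 (6.03 ± 0.47), Fjx1, a relative of the fly protein Four-jointed (5.75 ± 0.39), and Cmah, a sialic acid hydroxylase (5.95 ± 0.59), were the other large increases, again with Cadm3. Alpl, alkaline phosphatase, had no UMI in the Ackr1-positive sums and 1063 in the Plvap-zero sums, at least 10.4-fold lower against a floor of 3 counts over the group, and Nos2, the inducible nitric oxide synthase, was at least 9.17-fold lower by the same floor. Timp4 was 45.9-fold lower (counting interval 15.7 to 223) and Art3 37.3-fold lower (10.3 to 308), and Btnl9 was at 14.0 CPM ± 13.1 against 318 CPM ± 34.3 (-4.84 ± 0.40). Capillary genes were lower for 13 of 15 and higher for 1, and 11 of 19 interferon genes were lower and none higher. The higher one, Aqp1, was not called without MI 244 (adjusted p = 0.25) or MI 255 (0.24). Of 15 antigen presentation genes 7 were called lower and none higher, but none of the 7 was called without MI 250 (adjusted p of 0.059 to 0.25), and DESeq2 called only B2m of them. Erythroid genes were at 946 to 5742 CPM in the Plvap-zero sums and at 38.5 to 606 CPM in the Ackr1-positive sums, and their part in this comparison was not tested. The 3 comparisons share the Ackr1-positive sums, so their agreement is not independent. Across the 4 classes Lrg1 stood in the order Plvap-zero, venous, Plvap-high and Ackr1-positive without overlap between neighbours, while Nr2f2 had 308 CPM ± 154 in Ackr1-positive and 308 CPM ± 61.5 in venous cells, which the gate required to hold it.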

How the data were processed

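Endothelial cells of 8 mice were profiled by 3′ single-cell RNA sequencing, 1 library a mouse. The authors deposited 1 table of counts, the UMIs of 16791 genes in 31028 cells, not normalized, made with Cell Ranger, mm10 and Ensembl release 84 and, per the submitters' processing notes, R 3.5.2 and Seurat 2.3. They had excluded cells with fewer than 400 genes or over 20% mitochondrial UMIs. Cells were grouped by the mouse named in the table. Cells were thinned once to 2000 UMIs, leaving out 2 Ackr1-positive and 5 Plvap-high cells with fewer. Of the 510 venous cells 501 were kept, and of the 8624 Plvap-zero cells 8062. The median depth before thinning was 5676 UMIs in venous and 3446.5 UMIs in Plvap-zero cells. Sums per mouse and class were compared with edgeR 4.0.16 in R 4.3.3 (TMM factors, filterByExpr, quasi-likelihood test, Benjamini-Hochberg adjustment over all genes tested, threshold 0.05), with the mouse as block since both sums came from 1 animal. Deviations of the 2 sums of a mouse from the class means correlated at 0.196 to 0.434 against Plvap-high cells, over 1411 genes. CPM are thinned UMIs scaled to 1000000 per sum. On simulated counts for the Plvap-high comparison (4425 genes), 92.2% of genes changed 4-fold, 22.5% of those changed 2-fold and 0.0236% of unchanged genes were called. The simulation gave all genes 1 fixed dispersion, not estimated from the data, and no differences between mice. These shares therefore need not hold for the real sums. Other tools were DESeq2 1.42.0, Python 3.11.15, numpy 2.4.6, scipy 1.17.1, pandas 2.3.3 and matplotlib 3.10.9. Gene coordinates were from an annotation of GRCm38, the build of the deposited counts. No doublet caller was run. The cells and gene lists were chosen with earlier results of these data known. Named genes had an adjusted p under 0.05, at least 50 CPM in the higher class and 1 direction in all 4 mice: the 15 highest and 10 lowest log2 fold changes in the main comparison and 5 of each in the others. Up to 6 genes a list, and further called members where a list's count is broken down, were named after their values were seen. Alternatives changed the test, factors, filter, block, depth, gate and mice. The values of 1 listed gene are not reported here.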

Additional observations from a re-analysis of the deposited data

Results flagged for a closer look

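In groups of 4 mice, 1 mouse lay far from the other 3 in 11 of 65 groups of values examined (Dixon's test at its 95% critical value). Chance flags about 1 in 20 groups, but the count cannot be read against that rate, since 3 of the 11 have 3 values of 0 and Timp4 enters with the same sums in 2 comparisons. The share of Ackr1-positive cells was 5.09% in MI 255. In Ackr1-positive cells, Cadm3 was high in MI 255 (99.4 CPM) and Bst1 in MI 244 (161 CPM). Esm1 (3.21 CPM), Gja5 (6.41 CPM) and H19 (19.2 CPM) had UMIs in the Ackr1-positive cells of MI 255 alone, which held most of the cells. Timp4 was at 62.5 CPM in the Ackr1-positive cells of MI 256, from 2 of 3 UMIs in all, a value that enters both the venous and the Plvap-zero comparison. In Plvap-high cells of MI 256, Sncg (22.7 CPM) and Igfbp3 (636 CPM) were low and Mustn1 (83.3 CPM) was high. The cause of these values was not tested.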

How the results depend on the processing

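Counts of called genes moved with the settings more than their directions did. Against Plvap-high cells, the counts higher and lower (203 and 173) were 107 and 56 with DESeq2, 102 and 93 at 1000 UMIs, 314 and 285 at 4000 UMIs, and 501 and 445 without thinning. They were 125 and 84 with at least 10 UMIs of Plvap in both classes (1978 genes tested) and 311 and 273 with 306 comparator cells matched on depth, both chosen after seeing the data, and 397 were lower with a comparator of at least 1 UMI of Plvap. Leaving out 1 mouse gave 105 to 218 higher and 76 to 166 lower. Against venous cells (185 and 196) they were 77 and 77 with DESeq2, 93 and 108 at 1000 UMIs, 293 and 311 at 4000 UMIs, 443 and 470 without thinning, and 93 to 238 and 90 to 205 with 1 mouse left out. Against Plvap-zero cells (368 and 573) they were 187 and 372 at 1000 UMIs, 637 higher at 4000 UMIs, 1116 and 1178 without thinning, 294 lower with DESeq2, and 187 to 474 and 391 to 563 with 1 mouse left out. Among the fits without 1 mouse, the lowest counts were those without MI 255. Without the mouse as block, that is without the pairing, the counts were 174 and 133, 158 and 187, and 432 and 625 in the 3 comparisons. The mean share was 0.816 to 2.31% with 1 mouse left out, 3.25% with at least 1 UMI of Ackr1 and 1.55% with at least 3. It was 1.02% with the gate set after thinning to 2000 UMIs. Without cells holding 2 or more UMIs of markers of other cell types it was 0.631%, with 0% in the lowest mouse.

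Of the log2 fold changes of named and listed genes under the alternatives, 5246 kept direction and side of the threshold, 571 lost the call and 1 reversed, that of Tcf15 against Plvap-high cells at 0.0145 when Ackr1-positive cells with 1 UMI were included. The cause of these changes was not tested. The comparison of Ackr1-positive cells with and without Selp was not run, since 1 mouse had at least 20 cells in both classes. Leaving out cells with 2 or more UMIs of markers of other cell types was not run for the genes, as it removed all 31 cells of MI 244 and 224 of the 238 cells. With 16 to 156 cells per mouse, genes of low level could not be compared.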
